A study of Mus musculus with 2 samples.

Results

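Toll-like receptors are the membrane sensors with which cells of the innate immune system recognise bacterial and viral molecules. At the cell surface Tlr2 binds bacterial lipoproteins, and Tlr4 binds lipopolysaccharide, which the co-receptor Cd14 hands to a complex of Tlr4 and its secreted partner MD-2, the product of Ly96. In the endosome Tlr7 senses single-stranded RNA, Tlr9 senses unmethylated CpG DNA and Tlr13, a receptor that mice have, senses bacterial ribosomal RNA. All of these receptors signal through the adaptor Myd88 to NF-kB and interferon regulatory factors, and in marrow they are best known from neutrophils, monocytes, macrophages and plasmacytoid dendritic cells. These 8 genes (Tlr2, Tlr4, Cd14, Ly96, Tlr7, Tlr9, Tlr13 and Myd88) are described here. They were picked by symbol, each matched 1 row of the 32285 genes listed, and all 8 were detected.

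The cells came from mice with an osteoporotic fracture that had received an intramedullary nail, and were a mixture of femoral marrow and of cells that adhered to the implant. One library came from mice with a Mg-TAGelMA nail and the other from mice with a plain magnesium (Mg) nail, so the fracture, the osteoporosis and the magnesium were shared by both. The labels do not expand TAGelMA and do not give strain, sex, age, the day of sampling, how osteoporosis was induced or how many mice were pooled. RNA was captured by 10x Chromium 3' v3 droplets, and the values are raw counts of unique molecular identifiers (UMIs). The mice are called Mg-TAGelMA mice and Mg mice, and values are given as those with the Mg-TAGelMA nail and with the Mg nail. With 1 library per nail there are no replicates and no test of the nails was possible, so intervals (95%, exact) cover counting error only, and a ratio of the libraries cannot be told apart from a difference between animals, dissections or library runs.

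The Mg-TAGelMA library held 7591 barcodes and 79890998 UMIs, and the Mg library 9466 barcodes and 58261391 UMIs. After filters and removal of doublets 7226 and 8122 cells were kept, with a median of 6744 UMIs with the Mg-TAGelMA nail and 3803.5 with the Mg nail. The libraries shared 21 cell barcodes. Cells were gated on 20 fixed marker lists, and a type is written "-like" because the gate rests on RNA. The gate placed 85.1% of Mg-TAGelMA cells and 72.4% of Mg cells. Mature neutrophil-like cells, gated on Cxcr2, Retnlg, Mmp8, Mmp9, Il1r2, Trem1 and Mxd1, numbered 1955 and 406, and their median depth was 5202 UMIs with the Mg-TAGelMA nail and 1949 with the Mg nail. Nearly all of the Mg ones (405) shared a Leiden cluster with 697 of the 1023 Mg immature neutrophil-like cells, whereas 973 of the Mg-TAGelMA ones lay in another cluster. Classical monocyte-like cells numbered 701 and 407, also mostly in different clusters (383 and 388 cells in the largest of each library).

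The libraries also differed in their processing. The Mg-TAGelMA matrix was written by Cell Ranger 7.0.1 and the Mg matrix by Cell Ranger 5.0.0, and the setting for intronic reads is not given in the sources used here. The ratio of Mg-TAGelMA over Mg followed annotated intron length. In classical monocyte-like cells its median was 2.16 for genes with over 64 kb of intron and 0.89 for genes with at most 8 kb. Among the 8 genes the annotated introns came to 97.1 kb in Tlr4, 21.5 kb in Tlr7, 20.5 kb in Ly96, 12.99 kb in Tlr13, 2.90 kb in Myd88, 2.48 kb in Tlr2, 0.808 kb in Tlr9 and 0 kb in Cd14. The part of this pattern in any single ratio was not tested. The median for genes of its intron class is given beside the Tlr4 ratio in each gated type where Tlr4 was called. These were immature and mature neutrophil-like, classical and nonclassical monocyte-like, B progenitor-like and B-like cells.

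In the annotation of GRCm38, the assembly also called mm10, Tlr2 lies at chr3:83836272-83841767 on the minus strand, Tlr4 at chr4:66827584-66930284 on the plus strand, Ly96 at chr1:16688051-16709611 on the plus strand and Tlr9 at chr9:106222598-106226883 on the plus strand. Tlr13 lies at chrX:106143204-106160493 on the plus strand, Tlr7 at chrX:167304929-167330558 on the minus strand and Myd88 at chr9:119335934-119341411 on the minus strand. RefSeq promoter windows were found for 4 of the 8 genes (GRCm38.p6), and 3 are shown. Tlr2 and Tlr13 are shown because both were high in the same neutrophil-like and monocyte-like cells, and Myd88 because it is the adaptor that all of these receptors use. Each sequence is read 5' to 3' on the gene's own strand and stops at the first annotated exon base it meets, which for Tlr2 and Tlr13 is where the gene starts. Capitals mark matches to an NF-kB consensus in Tlr2 and to the core of the interferon-stimulated response element in Myd88. Both were searched on both strands, together with the PU.1 motif GAGGAAGT.
Tlr2, chr3:83841768-83841858, minus strand: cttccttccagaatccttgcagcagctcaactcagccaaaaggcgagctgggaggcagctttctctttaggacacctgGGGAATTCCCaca
Tlr13, chrX:106143025-106143203, plus strand: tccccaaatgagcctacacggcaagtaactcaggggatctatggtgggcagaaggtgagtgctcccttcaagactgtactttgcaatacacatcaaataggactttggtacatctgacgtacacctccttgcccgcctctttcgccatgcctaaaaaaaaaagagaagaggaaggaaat
Myd88, chr9:119340042-119340268, minus strand: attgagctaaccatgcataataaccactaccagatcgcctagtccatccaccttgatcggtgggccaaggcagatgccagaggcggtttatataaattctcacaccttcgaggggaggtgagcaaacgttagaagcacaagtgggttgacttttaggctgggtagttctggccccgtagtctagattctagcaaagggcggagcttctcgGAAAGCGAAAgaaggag
The 91 bases before Tlr2 held 1 palindromic NF-kB match, a motif that 0.326% of 32851 promoters hold in a window of that length. The 227 bases of Myd88, which lie between exons of longer annotated Myd88 transcripts, held 1 interferon-response match, a motif that 2.70% of promoters hold in a window of that length. None of the 3 motifs was found in the 179 bases of Tlr13 or in the 250 bases before Tlr9. The Tlr2 match was noticed before its motif was chosen, and these matches are a description of the letters only.

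Across the mixed marrow and implant cells, most Tlr2, Cd14 and Tlr13 UMIs lay in neutrophil-like and monocyte-like cells in both libraries, and Tlr9 was barely detected. Among types with at least 50 cells, Tlr7 was highest in plasmacytoid dendritic-like and nonclassical monocyte-like cells. Levels are given as counts per 1e+06 UMIs of the cell type (CPM). They are counts of 3' ends and are compared between cell types for 1 gene, not between genes. Of all Tlr2 UMIs, 49.6% with the Mg-TAGelMA nail and 25.9% with the Mg nail lay in the neutrophil lineage, and 42.9% and 44.7% in monocyte-like cells. Cd14 UMIs lay in the neutrophil lineage to 70.4% with the Mg-TAGelMA nail and 52.2% with the Mg nail. Tlr4 UMIs lay in the neutrophil lineage to 53.9% and in monocyte-like cells to 33.1% with the Mg-TAGelMA nail. With the Mg nail these shares were 45.9% and 14.3%, and the B lineage held 23.6% of Tlr4 UMIs. The neutrophil lineage itself made up 50.2% of Mg-TAGelMA cells and 19.5% of Mg cells, so the make-up of the cells moved with these shares.

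**Figure D1:**
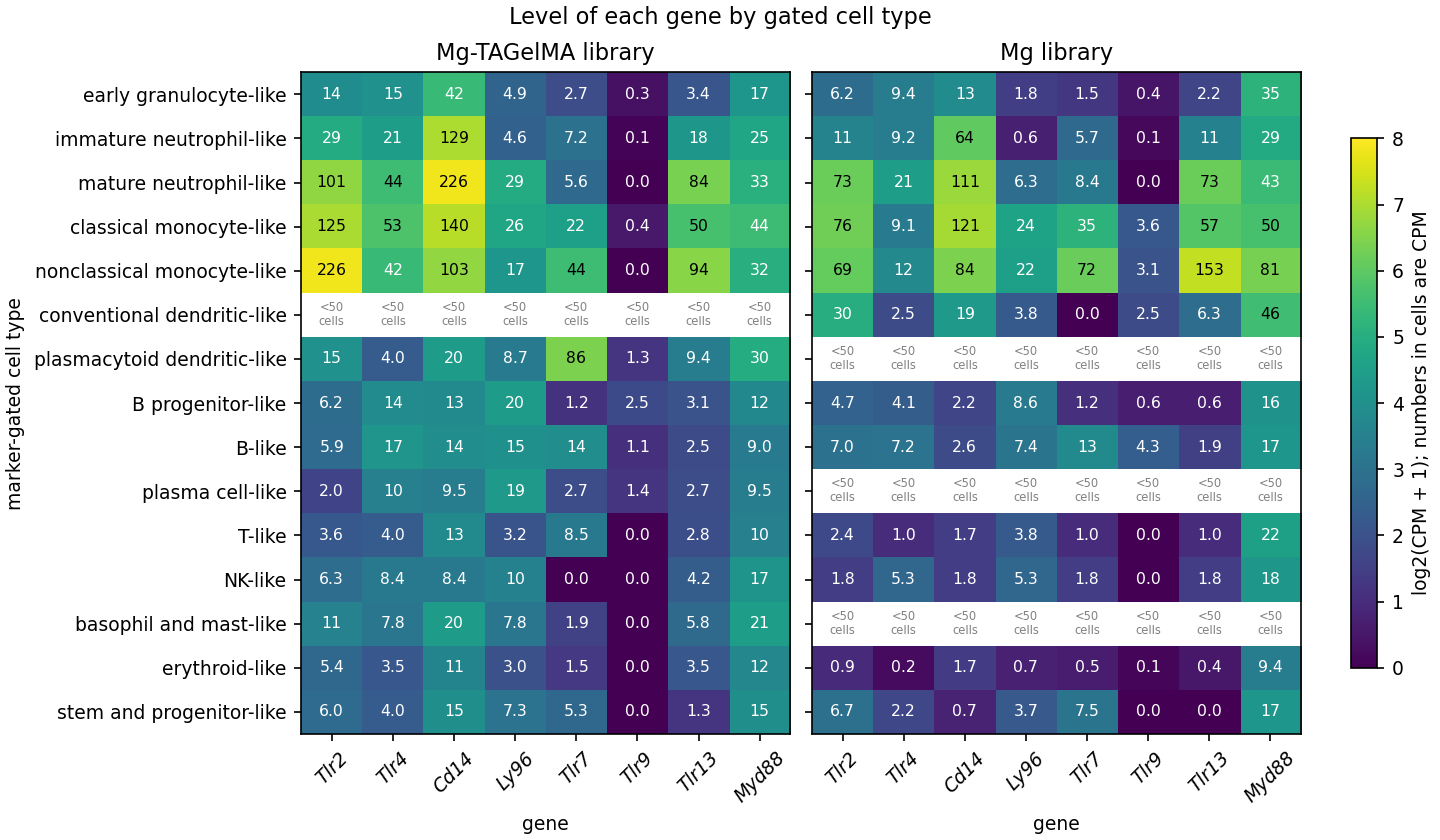
Level of each of the 8 genes (columns) in each gated cell type with at least 50 cells (rows), for the Mg-TAGelMA library (left) and the Mg library (right). Colour is log2(CPM + 1) and the printed number is CPM. Tlr2 and Tlr13 are brightest in the mature neutrophil-like and monocyte-like rows of both panels, Cd14 is bright there and in immature neutrophil-like cells, and Tlr7 is at 85.6 CPM in plasmacytoid dendritic-like cells from Mg-TAGelMA mice.

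**Figure D2:**
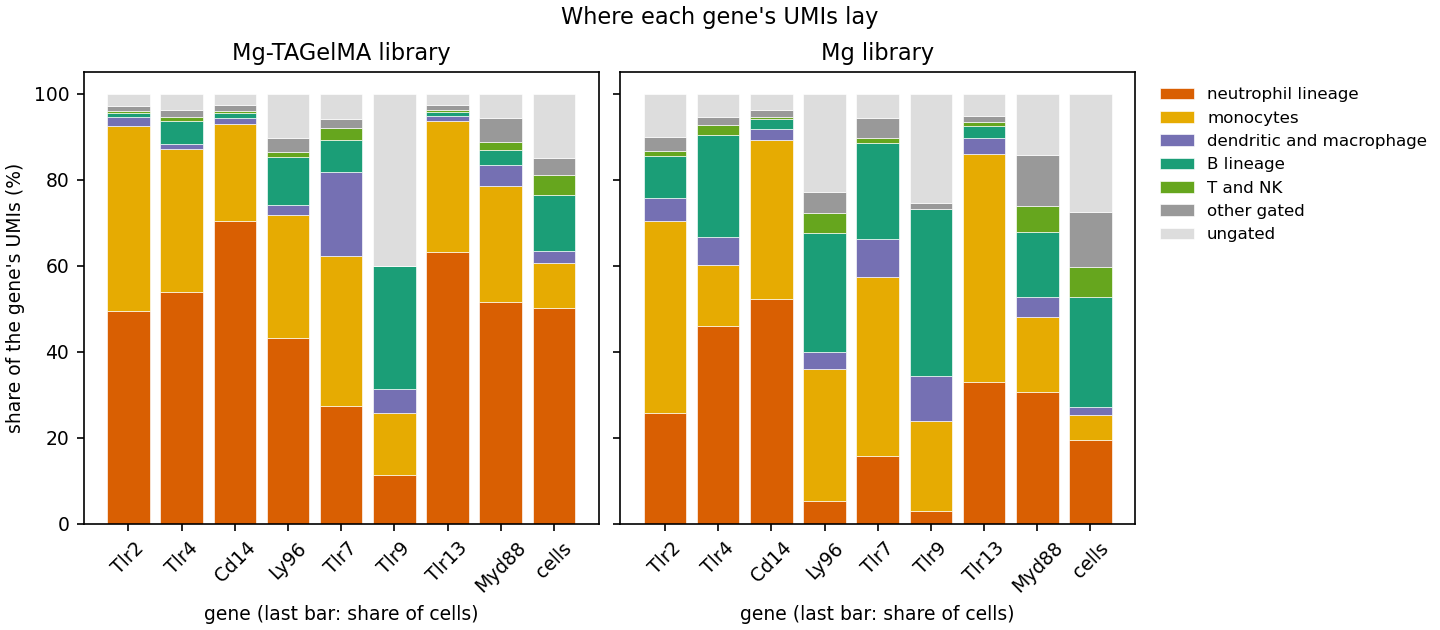
Share of each gene's UMIs (%, vertical axis) that came from each group of gated cell types (colours), for the Mg-TAGelMA library (left) and the Mg library (right). The last bar of each panel gives the share of cells for comparison. Cd14 bars are mostly neutrophil lineage, 70.4% with the Mg-TAGelMA nail and 52.2% with the Mg nail.

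In droplet data free RNA gives UMIs of a gene in cells that do not express it. T-like cells, which are not known for the lipopolysaccharide receptor complex, had 33 Cd14 UMIs or 13.3 CPM (interval 9.16 to 18.7) with the Mg-TAGelMA nail and 5 UMIs or 1.73 CPM (0.563 to 4.05) with the Mg nail. Erythroid-like cells were at like levels, 11.1 and 1.70 CPM. This level was thus higher with the Mg-TAGelMA nail, where the library had the larger share of neutrophil-like cells. Whether free RNA gave these UMIs was not tested. Median depth was 7662 and 5578 UMIs in T-like cells. For Tlr2 the T-like level was 3.63 CPM with the Mg-TAGelMA nail and 2.43 CPM with the Mg nail, for Tlr4 it was 4.03 and 1.04 CPM, and for Tlr13 it was 2.82 and 1.04 CPM. Levels near these values are read below as background.

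Tlr2, the lipoprotein receptor, had 92 UMIs in 59 nonclassical monocyte-like cells from Mg-TAGelMA mice, 226 CPM (183 to 278), against 22 UMIs in 68 cells and 68.6 CPM (43.0 to 104) with the Mg nail. In classical monocyte-like cells it was at 125 CPM (118 to 131) with the Mg-TAGelMA nail and 76.2 CPM (67.4 to 85.7) with the Mg nail. Mature neutrophil-like cells had 101 CPM (95.2 to 107) and 72.8 CPM (56.6 to 92.1). The order of the types was therefore nonclassical monocyte, classical monocyte and mature neutrophil with the Mg-TAGelMA nail, with no overlap of neighbouring intervals. With the Mg nail the intervals of these 3 types overlapped. Relative to T-like cells, the mature neutrophil-like level was 27.9-fold higher (14.6 to 61.1) with the Mg-TAGelMA nail and 29.98-fold higher (13.8 to 77.3) with the Mg nail.

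Tlr13, the receptor for bacterial ribosomal RNA, followed the same cells. It was highest in nonclassical monocyte-like cells, at 93.5 CPM (66.2 to 128) with the Mg-TAGelMA nail and 153 CPM (113 to 202) with the Mg nail. Mature neutrophil-like cells had 83.7 CPM (78.3 to 89.4) with the Mg-TAGelMA nail, which overlapped the nonclassical interval, and 72.8 CPM (56.6 to 92.1) with the Mg nail, which did not. Classical monocyte-like cells had 49.7 and 57.1 CPM. Dendritic-like cells were low, at 9.37 CPM in the plasmacytoid ones from Mg-TAGelMA mice and 6.33 CPM in the conventional ones from Mg mice. In the lymphoid, erythroid-like, stem and progenitor-like and basophil- and mast-like types with at least 50 cells, Tlr13 did not exceed 5.85 CPM with the Mg-TAGelMA nail or 1.85 CPM with the Mg nail.

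Cd14, the lipopolysaccharide co-receptor, was at 226 CPM (217 to 235) in mature neutrophil-like cells from Mg-TAGelMA mice, above classical monocyte-like cells at 140 CPM (133 to 147). With the Mg nail the intervals of mature neutrophil-like and classical monocyte-like cells overlapped, at 111 CPM (90.6 to 134) and 121 CPM (110 to 133). Thinned to 1000 UMIs per cell, 18.2% (16.5 to 19.99) of mature neutrophil-like cells had a Cd14 UMI with the Mg-TAGelMA nail and 7.98% (5.37 to 11.3) with the Mg nail, and 10 and 55 shallower cells were left out. Without thinning the shares were 51.6% and 14.8%. In thinned T-like cells the shares were 1.017% with the Mg-TAGelMA nail and 0.410% with the Mg nail.

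Tlr4, the signalling receptor for lipopolysaccharide, was at 53.1 CPM (48.9 to 57.5) in classical monocyte-like cells and 44.3 CPM (40.4 to 48.5) in mature neutrophil-like cells from Mg-TAGelMA mice. The Mg library gave 9.14 CPM (6.29 to 12.8) in classical monocyte-like cells and 21.1 CPM (12.9 to 32.6) in mature neutrophil-like cells. The order of the types thus differed between the libraries: mature neutrophil-like over classical monocyte-like cells came to 0.835-fold (0.738 to 0.944) with the Mg-TAGelMA nail and 2.31-fold (1.26 to 4.14) with the Mg nail. B-like cells carried Tlr4 above the T-like level, 4.18-fold (2.12 to 9.16) with the Mg-TAGelMA nail and 6.94-fold (2.21 to 35.1) with the Mg nail.

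Ly96, which encodes the lipopolysaccharide-binding MD-2, was at 25.8 CPM (22.9 to 29.0) in classical monocyte-like cells from Mg-TAGelMA mice and 24.1 CPM (19.3 to 29.7) in those from Mg mice. Mature neutrophil-like cells had 314 UMIs and 29.4 CPM (26.2 to 32.8) with the Mg-TAGelMA nail, against 6 UMIs and 6.33 CPM (2.32 to 13.8) with the Mg nail. Relative to T-like cells that was 9.11-fold higher (4.57 to 21.3) with the Mg-TAGelMA nail and 1.66-fold (0.504 to 4.89) with the Mg nail. The Mg interval includes even, but Mg T-like cells, at 3.82 CPM (1.90 to 6.83), were themselves above erythroid-like cells at 0.681 CPM (0.294 to 1.34). The Mg mature neutrophil-like level, on 6 UMIs, thus lay above the erythroid-like one and was not told apart from the T-like one. B progenitor-like cells were above T-like cells in both libraries, at 19.8 CPM with the Mg-TAGelMA nail and 8.62 CPM with the Mg nail, 6.13-fold (2.77 to 15.4) and 2.26-fold (1.15 to 4.85) over T-like cells. B-like cells had Ly96 at 4.70-fold (2.23 to 11.4) and 1.94-fold (0.978 to 4.197) of the T-like level, so the Mg interval includes even. Cd14 in B-like cells was at 1.06-fold (0.667 to 1.69) and 1.496-fold (0.509 to 5.31) of the T-like level, and both intervals include even.

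Tlr7, the RNA sensor of plasmacytoid dendritic cells, had 128 UMIs in 114 plasmacytoid dendritic-like cells from Mg-TAGelMA mice, 85.6 CPM (71.4 to 102). The Mg library had 42 such cells, under the minimum of 50, with 23 UMIs and 59.4 CPM (37.7 to 89.1). Cells gated on macrophage markers, also under that minimum, had 79.4 CPM (46.2 to 127) on 17 UMIs with the Mg-TAGelMA nail. With the Mg nail they had 48.1 CPM (22.0 to 91.2) on 9 UMIs. Nonclassical monocyte-like cells had 44.3 CPM (26.3 to 70.0) and 71.7 CPM (45.4 to 108), and classical ones 22.1 and 34.9 CPM. The nonclassical over classical ratio was 2.003 (1.17 to 3.23) with the Mg-TAGelMA nail and 2.05 (1.26 to 3.22) with the Mg nail. Tlr7 also differed between 2 stages of the B lineage: B-like cells had 14.1 and 13.2 CPM and B progenitor-like cells 1.24 and 1.18 CPM, on 2 and 6 UMIs. The ratio was 11.4 (2.99 to 96.5) with the Mg-TAGelMA nail and 11.2 (4.90 to 31.5) with the Mg nail. B-like over T-like cells came to 1.66-fold (0.979 to 2.91) with the Mg-TAGelMA nail, an interval that includes even. With the Mg nail it came to 12.6-fold (4.15 to 62.8). With the Mg nail 0 Tlr7 UMIs were found in 55 conventional dendritic-like cells, which by the limit of 3 counts allows a level of up to 3.80 CPM (exact interval up to 4.67).

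Tlr9, the CpG DNA sensor, had 35 UMIs in the whole Mg-TAGelMA library and 67 in the whole Mg library. Mature neutrophil-like cells had 0 in both, which by a limit of 3 counts allows a share of cells with a UMI of up to 0.153% with the Mg-TAGelMA nail (exact interval up to 0.189%) and 0.739% with the Mg nail (up to 0.904%). T-like cells also had 0 in both. B-like cells held 4 UMIs with the Mg-TAGelMA nail, 1.12 CPM (0.306 to 2.88), and 23 UMIs with the Mg nail, 4.26 CPM (2.70 to 6.39). The 42 plasmacytoid dendritic-like cells from Mg mice held 4 UMIs, 10.3 CPM (2.82 to 26.5), and the 114 from Mg-TAGelMA mice held 2, 1.34 CPM (0.162 to 4.83).

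Myd88, the shared adaptor, was detected in every cell type with at least 50 cells. Its levels ran between 8.99 CPM in B-like cells and 43.9 CPM in classical monocyte-like cells from Mg-TAGelMA mice, and between 9.37 CPM in erythroid-like cells and 81.0 CPM in nonclassical monocyte-like cells from Mg mice. T-like cells had 10.1 CPM (6.52 to 14.9) with the Mg-TAGelMA nail and 22.2 CPM (17.1 to 28.3) with the Mg nail. Classical monocyte-like cells exceeded T-like cells 4.35-fold (2.91 to 6.79) with the Mg-TAGelMA nail and 2.26-fold (1.69 to 3.05) with the Mg nail.

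Along the neutrophil lineage Tlr2, Tlr4, Cd14, Tlr13 and Ly96 were highest at the last stage in both libraries. For Ly96 with the Mg nail this rests on 6 UMIs, and its interval overlapped that of early cells. The gate separated early granulocyte-like cells (Elane, Mpo and Prtn3), immature neutrophil-like cells (Camp, Ltf and Ngp) and mature neutrophil-like cells. Tlr2 was at 13.9, 29.0 and 101 CPM in this order with the Mg-TAGelMA nail and at 6.17, 10.9 and 72.8 CPM with the Mg nail. Tlr13 was at 3.39, 17.9 and 83.7 CPM with the Mg-TAGelMA nail and at 2.18, 10.5 and 72.8 CPM with the Mg nail. Of the 7 genes with a ratio these had the largest mature over early ratios in both libraries. For Tlr13 the ratio was 24.7 (17.8 to 35.3) with the Mg-TAGelMA nail and 33.4 (14.6 to 94.2) with the Mg nail, and for Tlr2 7.26 (6.13 to 8.67) and 11.8 (6.86 to 21.4). Tlr7 was at 2.75, 7.16 and 5.62 CPM with the Mg-TAGelMA nail and 1.45, 5.70 and 8.44 CPM with the Mg nail, with overlapping intervals for its immature and mature cells. With the Mg-TAGelMA nail none of these levels exceeded the T-like one of 8.47 CPM (5.24 to 12.9), so no course is read there. Mature over T-like came to 0.663-fold (0.398 to 1.15) there and to 8.11-fold (1.95 to 47.5), on 8 and 3 UMIs, with the Mg nail. Tlr9 had 0 UMIs in mature cells.

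Cd14 was at 42.2, 129 and 226 CPM with the Mg-TAGelMA nail and at 13.4, 64.5 and 111 CPM with the Mg nail, so its step from early to immature cells was the larger one. Immature over early came to 3.06-fold (2.77 to 3.39) with the Mg-TAGelMA nail and 4.80-fold (3.44 to 6.90) with the Mg nail, and mature over immature to 1.75-fold (1.65 to 1.85) and 1.72-fold (1.38 to 2.12). Ly96 stayed at 4.95 and 4.65 CPM in early and immature cells from Mg-TAGelMA mice, near the T-like level of 3.23 CPM, and reached 29.4 CPM in mature cells. With the Mg nail Ly96 was at 1.81, 0.633 and 6.33 CPM on 5, 5 and 6 UMIs. Its mature over early ratio there of 3.49 had an interval (0.887 to 14.5) that includes even, whereas mature over immature was 9.998-fold (2.54 to 41.4). Myd88 changed least with the Mg nail, where mature over early was 1.24-fold (0.840 to 1.81), and was 1.88-fold (1.58 to 2.26) with the Mg-TAGelMA nail. The largest cluster among the 349 early granulocyte-like cells from Mg-TAGelMA mice, with 141 of them, was not the largest among the Mg ones.

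**Figure D3:**
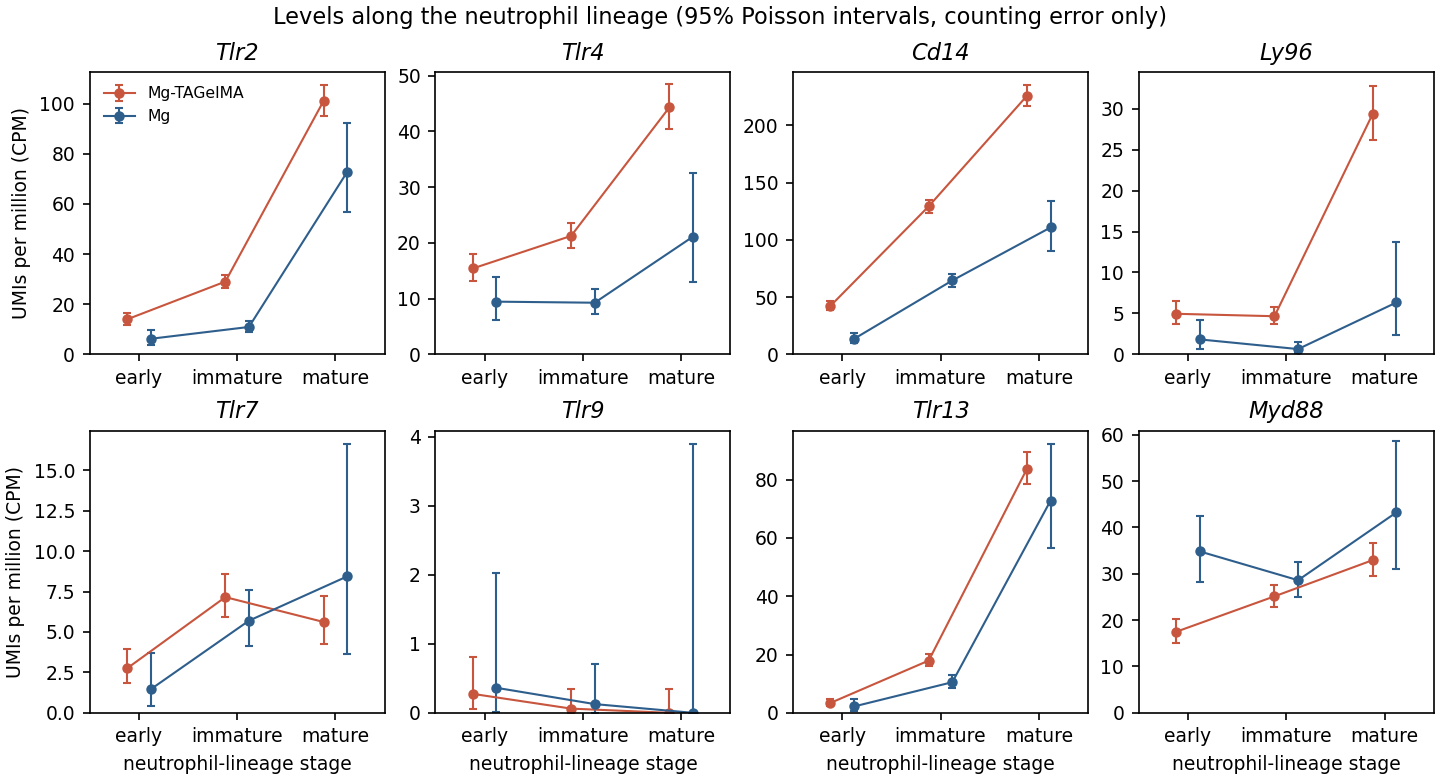
Level (CPM, vertical axis from 0) of each of the 8 genes at 3 stages of the neutrophil lineage (horizontal axis), for the Mg-TAGelMA library (red) and the Mg library (blue). Bars are exact 95% Poisson intervals, which cover counting error only. Tlr2 and Tlr13 are highest in mature cells of both libraries, and Ly96 reaches 29.4 CPM in mature cells from Mg-TAGelMA mice against 6.33 CPM in those from Mg mice.

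Between the nail groups, the summed cells gave 5 of the 8 genes at least 2-fold higher with the Mg-TAGelMA nail and 1 at least 2-fold lower, where 27.6% of all genes counted were higher and 11.5% lower. Tlr4 had 1832 UMIs with the Mg-TAGelMA nail and 259 with the Mg nail (5.205-fold), Cd14 7082 and 1248 (4.18-fold), Tlr2 3440 and 665 (3.81-fold), Tlr13 1938 and 480 (2.97-fold) and Ly96 1029 and 306 (2.47-fold). Tlr9 was 2.602-fold lower. Tlr7 was at 1.55-fold and Myd88 at 1.15-fold. In these sums more cells of a type and more RNA per cell cannot be told apart, so the ratios within gated types follow. A gene was counted with at least 20 UMIs over both libraries, and called higher or lower at 2-fold or more.

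In mature neutrophil-like cells 3 of the 7 genes counted were higher with the Mg-TAGelMA nail and 0 lower, against 16.7% of all genes higher and 18.8% lower. Ly96 was 4.65-fold higher (2.11 to 12.8), Tlr4 2.10-fold higher (1.34 to 3.47) and Cd14 2.04-fold higher (1.68 to 2.503). Tlr2 at 1.39-fold (1.09 to 1.80), Tlr13 at 1.15-fold (0.900 to 1.49), Myd88 at 0.762-fold (0.550 to 1.08) and Tlr7 at 0.666-fold (0.317 to 1.61) did not reach 2-fold. The median log2 ratio was 0.47 over the 7 genes and -0.17 over all genes counted. Tlr4 and Cd14 lay close to the limit: with the total taken without Gm42418 and AY036118 they were at 1.75-fold and 1.70-fold, and with a gate that asks for 1 more marker at 1.90-fold and 1.81-fold. For genes in the intron class of Tlr4 the median ratio in these cells was 1.40.

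Immature neutrophil-like cells had 4 of 7 genes higher and 0 lower, against 17.2% of all genes higher and 10.2% lower. Tlr2 was 2.66-fold higher (2.11 to 3.39), at 29.0 CPM with the Mg-TAGelMA nail and 10.9 CPM with the Mg nail. Tlr4 was 2.30-fold higher (1.78 to 2.998), where the median of its intron class was 1.58. Cd14 was 2.01-fold higher (1.82 to 2.21), with 129 CPM with the Mg-TAGelMA nail and 64.5 CPM with the Mg nail. Ly96 was 7.34-fold higher (3.01 to 23.3), on 76 and 5 UMIs, but at levels of 4.65 and 0.633 CPM, which over T-like cells came to 1.44-fold (0.695 to 3.46) and 0.166-fold (0.0452 to 0.518). When cells took the gate of their cluster, Tlr2 and Tlr4 were at 1.87-fold and 1.98-fold. Thinned to 1000 UMIs per cell, Tlr2, Tlr4 and Cd14 were at 1.67-fold, 1.72-fold and 1.85-fold, and Cd14 was at 1.83-fold with the total taken without Gm42418 and AY036118. Early granulocyte-like cells had 3 of 7 genes higher (Tlr2 2.26-fold, Cd14 3.14-fold, Ly96 2.73-fold) and 0 lower, against 22% and 5.78% of all genes. Myd88 there was 1.99-fold lower (1.54 to 2.56), just short of the limit. After thinning, Tlr2 and Cd14 in early cells were at 1.55-fold and 1.29-fold.

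Classical monocyte-like cells had 1 of 7 genes, Tlr4, higher and 0 lower, against 20.9% of all genes higher and 5.67% lower. Tlr4 was 5.80-fold higher (4.09 to 8.51), with 590 UMIs in 306 of 701 cells from Mg-TAGelMA mice and 33 UMIs in 31 of 407 cells from Mg mice. After thinning, 5.64% (4.04 to 7.64) of these cells had a Tlr4 UMI with the Mg-TAGelMA nail and 1.003% (0.274 to 2.55) with the Mg nail. The ratio was 2.68 times the median of 2.16 for genes with over 64 kb of intron. Its partners in the receptor complex were near even, Ly96 at 1.07-fold (0.840 to 1.38) and Cd14 at 1.16-fold (1.04 to 1.29). Tlr2 was at 1.64-fold (1.44 to 1.87), Myd88 at 0.875-fold, Tlr13 at 0.872-fold and Tlr7 at 0.634-fold (0.509 to 0.792). Tlr9, with 5 and 13 UMIs, was below the 20 UMIs needed to be counted. It was 8.01-fold lower (2.68 to 28.7) by those counts.

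**Figure D4:**
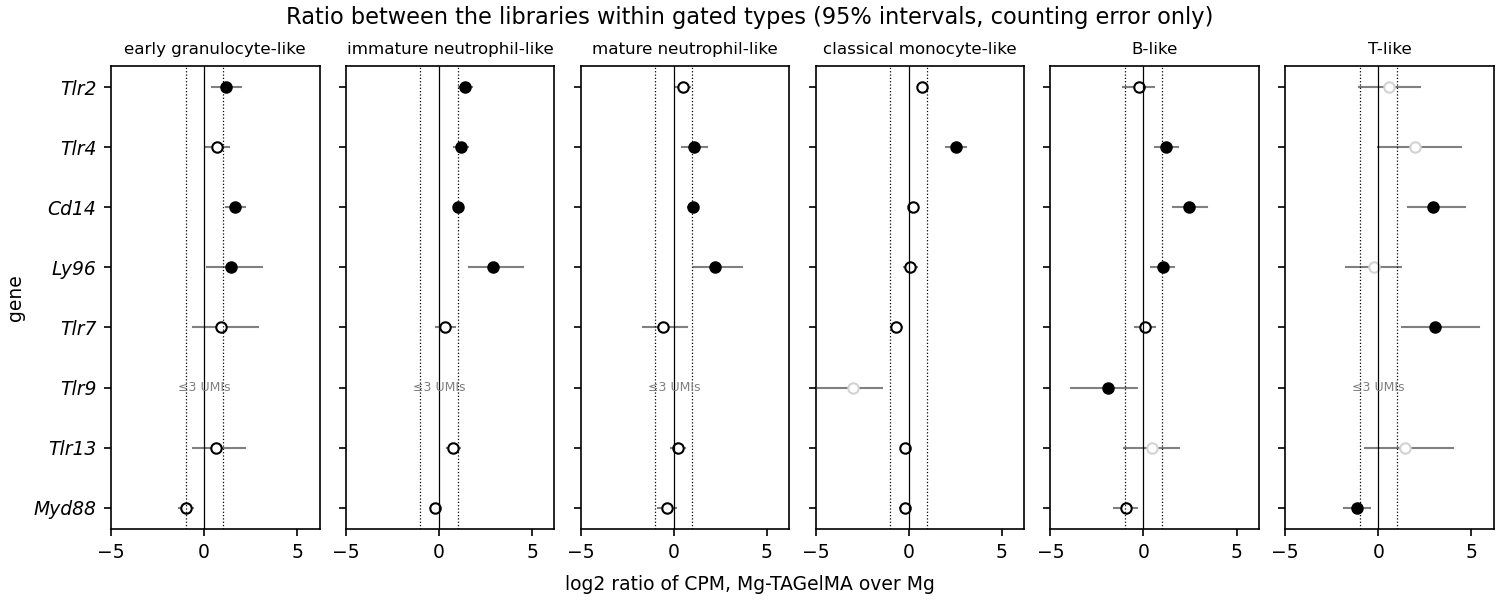
Ratio of Mg-TAGelMA over Mg (log2 of the CPM ratio, horizontal axis) for each gene (rows) in 6 gated cell types (panels), with exact 95% intervals for counting error, cut off at the edge of the axis. Filled points are at least 2-fold with at least 20 UMIs, open black points are under 2-fold and grey points have fewer than 20 UMIs. Dotted lines mark 2-fold. Tlr4 is the 1 filled point in the classical monocyte-like panel, at 5.80-fold, while Ly96 and Cd14 lie at 1.07-fold and 1.16-fold.

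In the smaller monocyte class Tlr2 was higher, and on few UMIs Tlr4 was higher and Myd88 lower. In nonclassical monocyte-like cells (59 and 68 cells) Tlr2 was 3.30-fold higher (2.06 to 5.53). Tlr4 was 3.36-fold higher (1.10 to 13.7), on 17 and 4 UMIs, where the median of its intron class was 2.09. Myd88 was 2.53-fold lower (1.25 to 5.37), on 13 UMIs with the Mg-TAGelMA nail and 26 with the Mg nail. These were 2 of 6 genes counted higher and 1 lower, against 21.3% and 9.61% of all genes. With the total restricted to genes of at most 8 kb of intron, Myd88 was at 0.518-fold and no longer called, and by cluster gate it was at 0.558-fold. Cells gated on the macrophage markers (C1qa, C1qb, C1qc and others) numbered 47 and 40, under the minimum, and were shallow, with a median of 1044 UMIs with the Mg-TAGelMA nail and 1524 with the Mg nail. Tlr4 there was at 74.7 CPM (42.7 to 121) with the Mg-TAGelMA nail and 80.1 CPM (44.8 to 132) with the Mg nail. Cd14 there was at 243 CPM (181 to 318), on 52 UMIs in 9 cells, with the Mg-TAGelMA nail. With the Mg nail it was at 80.1 CPM (44.8 to 132), on 15 UMIs in 8 cells. The intervals of the other genes overlapped between the libraries.

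In B-like cells 3 of 7 genes were higher and 1 lower, against 23.2% of all genes higher and 12.2% lower. Tlr4 was 2.33-fold higher (1.53 to 3.59), where the median of its intron class was 2.47, and Ly96 2.05-fold higher (1.34 to 3.16). Cd14 was 5.42-fold higher (2.95 to 10.6), from levels that did not differ from the T-like ones beyond counting error. Tlr9 was 3.79-fold lower (1.30 to 15.1), on 4 and 23 UMIs. Tlr7 was at 1.07-fold (0.729 to 1.56). B progenitor-like cells had Tlr4 (3.30-fold), Cd14 (6.02-fold) and Ly96 (2.29-fold) higher and 0 lower of 5 genes counted, against 20.2% and 6.65% of all genes. The median of the intron class of Tlr4 there was 2.30. Cd14 there was at 0.975-fold (0.536 to 1.74) of the T-like level with the Mg-TAGelMA nail. With the Mg nail it was at 1.24-fold (0.398 to 4.56), and both intervals include even.

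In T-like cells Cd14 and Tlr7 were higher and Myd88 lower, the 3 genes counted there, against 21.5% and 8.36% of all genes. Myd88 was 2.20-fold lower (1.37 to 3.65), but at 0.596-fold with the total restricted to genes of at most 8 kb of intron and at 0.525-fold with doublets kept. Tlr7 had 21 UMIs in 13 of 297 cells from Mg-TAGelMA mice, up to 6 in a single cell, and 3 UMIs with the Mg nail. In erythroid-like cells Tlr2, Cd14 and Ly96 were higher and 0 lower of 4 genes counted, against 26.7% and 2.77%, all 3 at levels of at most 11.1 CPM. In stem and progenitor-like cells Cd14 was higher of 2 genes counted (22 UMIs with the Mg-TAGelMA nail and 1 with the Mg nail), against 20.5% of all genes higher and 6.92% lower. The Cd14 ratio was thus higher in each non-myeloid type where it was counted than in mature neutrophil-like cells, and the Cd14 level of T-like cells, given above as background, moved with it. Its part in the ratios was not tested.

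**Figure D5:**
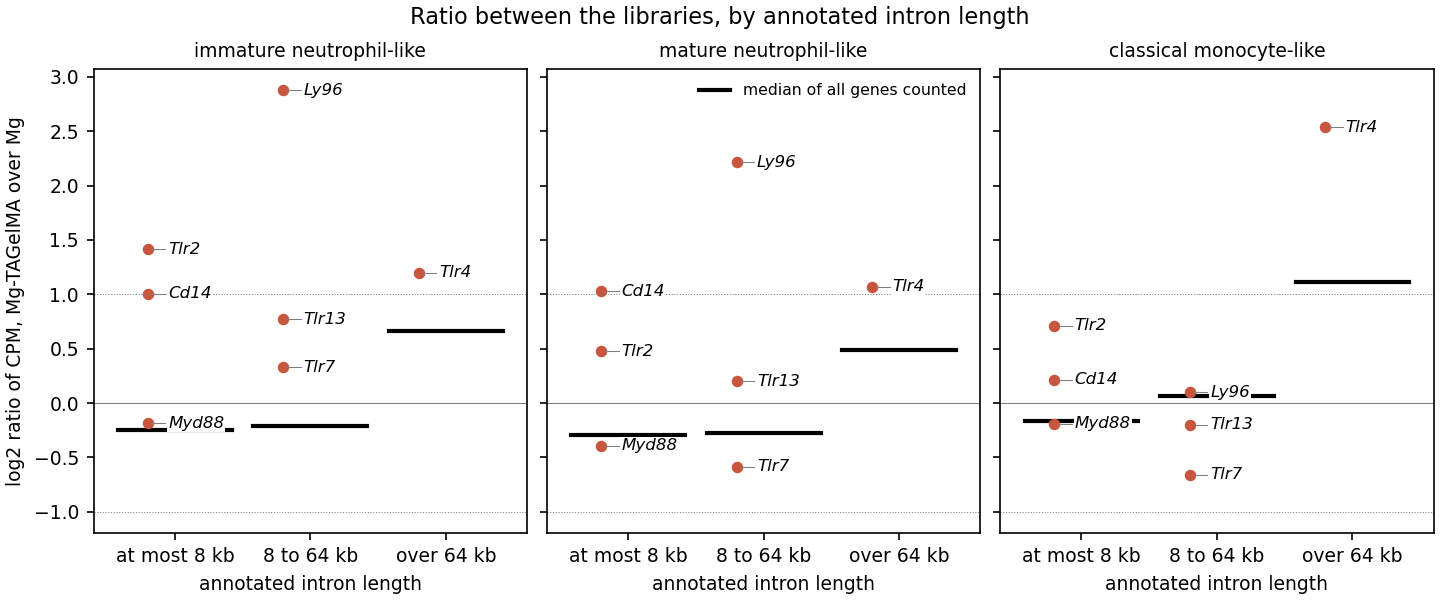
Ratio of Mg-TAGelMA over Mg (log2 of the CPM ratio, vertical axis) of the genes counted (red points) by class of annotated intron length (horizontal axis) in 3 gated cell types (panels). Black lines are the median of all genes counted in that class, and dotted lines mark 2-fold. Tlr4 stands above the median of its class in classical monocyte-like cells, 5.80-fold against 2.16-fold, and in that panel Ly96 and Myd88 lie near the medians of theirs. Ly96 stands above its class median in immature neutrophil-like cells, 7.34-fold against 0.864-fold, and in mature neutrophil-like cells, 4.65-fold against 0.828-fold.

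The rest of the pathway was given by 5 lists with 52 genes. The kinase Irak2 and the adaptor Pik3ap1, which links the receptors to phosphoinositide signalling, were higher in classical monocyte-like and mature neutrophil-like cells. This was not particular to them. Both were also higher in immature neutrophil-like, nonclassical monocyte-like, B progenitor-like, B-like, T-like, NK-like and stem and progenitor-like cells. Of the 48 genes counted in classical monocyte-like cells 9 were higher and 2 lower, where 20.9% of all genes were higher and 5.67% lower, so the pathway was called no more often than genes at large. Irak2 had 110 CPM with the Mg-TAGelMA nail and 28.8 CPM with the Mg nail (3.81-fold, 3.12 to 4.71), Pik3ap1 was 3.61-fold higher and the ubiquitin ligase Traf3 3.50-fold higher. The NF-kB subunit Relb was 2.66-fold higher. The inhibitors Socs1 and Tnfaip3, both induced by inflammatory signals, were 2.94-fold and 2.33-fold higher. Traf3, Relb and Tnfaip3 were also called higher in B-like, T-like and NK-like cells. Of the list for ligand delivery, Ctsk was 3.25-fold higher on 30 and 3 UMIs and Lbp, the lipopolysaccharide-binding protein, 2.53-fold higher. The 2 that were lower, named after their values were seen, were Ticam2 (2.34-fold) and Ticam1 (2.13-fold), the adaptors of the MyD88-independent arm of Tlr4. The annotated introns came to 52.1 kb in Irak2, 107 kb in Pik3ap1 and 93.4 kb in Traf3, and 0.389 kb in Socs1. The median log2 ratio of the 48 genes was -0.19, against 0.08 for all genes counted.

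In mature neutrophil-like cells 3 of 46 pathway genes were higher and 8 lower, where 16.7% of all genes were higher and 18.8% lower. The share higher was thus under that of all genes and the share lower close to it. Pik3ap1 had 10233 UMIs and 958 CPM with the Mg-TAGelMA nail, against 45 UMIs and 47.5 CPM with the Mg nail, 20.2-fold higher (15.1 to 27.7). Irak2 was 6.35-fold higher (4.65 to 8.91), and Tlr6, the partner of Tlr2 for diacylated lipoproteins, 3.53-fold higher (1.69 to 8.85), with 4.34 kb of intron. Hsp90b1, a chaperone that Toll-like receptors need to fold, was 2.89-fold lower, at 42.7 CPM with the Mg-TAGelMA nail and 123 CPM with the Mg nail. The scavenger receptor Cd36 was 2.56-fold lower on 22 and 5 UMIs, with an interval that includes even, and the endosomal transporter Slc15a4 2.34-fold lower. Ticam2 (2.82-fold, on 16 and 4 UMIs, with an interval that includes even), Tirap (2.52-fold, named after its value was seen), Irf3 (2.61-fold), Tollip (2.07-fold) and Nfkb2 (2.005-fold) were also lower. The median log2 ratio of the 46 genes was -0.51, against -0.17 for all genes counted.

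Mature neutrophil-like cells from Mg-TAGelMA mice were split into 1488 cells with a UMI of the cytokine gene Il1b and 467 cells without one. Those with Il1b had higher levels of Cd14, Tlr2, Tlr4, Ly96 and the endosomal Tlr13. Median depth was 4936 UMIs in the cells with Il1b and 5938 UMIs in those without, and its part in these levels was not tested. Cd14 was at 250 CPM (239 to 262) with Il1b and 158 CPM (144 to 174) without. Tlr13 was at 91.7 and 61.7 CPM, Tlr2 at 108 and 82.5 CPM, Tlr4 at 48.0 and 34.2 CPM and Ly96 at 32.5 and 20.8 CPM, each with intervals that did not overlap. Myd88, at 34.6 (30.6 to 38.9) and 28.5 CPM (22.7 to 35.5), overlapped, as did Tlr7 at 5.23 and 6.70 CPM, and Tlr9 had 0 UMIs in both. With the Mg nail the intervals of the 81 cells with and the 325 without Il1b overlapped for all 8 genes. The 81 cells held 17 Tlr2, 5 Tlr4, 2 Ly96, 13 Tlr13 and 21 Cd14 UMIs, so their intervals were wide. There Tlr2 was at 88.4 and 68.8 CPM, Tlr4 at 26.0 and 19.9 CPM and Ly96 at 10.4 and 5.29 CPM. Tlr13 was at 67.6 and 74.1 CPM and Cd14 at 109 and 111 CPM. Classical monocyte-like cells from Mg-TAGelMA mice gave overlapping intervals for all 8 genes: Cd14 was at 137 CPM (130 to 146) with Il1b and 148 CPM (134 to 162) without. In those from Mg mice the intervals overlapped except for Tlr7, which was at 73.5 CPM (48.9 to 106) in the 42 cells with Il1b and 30.3 CPM (24.6 to 37.0) in the 365 without. These are cells within a library, described as counts.

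Tlr4 and Ly96 form 1 receptor complex, and their UMIs were counted in the same cells. In classical monocyte-like cells from Mg-TAGelMA mice 100 of 306 cells with a Tlr4 UMI also had a Ly96 UMI, 32.7%, against 30.9% of the cells without Tlr4. In mature neutrophil-like cells of that library it was 54 of 348 cells, 15.5% against 13.9%. Among such cells from Mg mice 5 of 31 and 0 of 18 had both. Other types of the Mg-TAGelMA library went both ways. The share was 17.9% against 9.48% in early granulocyte-like cells (21 of 117 cells) and 31.3% against 13.6% in B progenitor-like cells (5 of 16 cells). It was 22.2% against 36.7% in plasma cell-like cells (2 of 9 cells) and 0% against 12.2% in nonclassical monocyte-like cells (0 of 10 cells). Thinned to 1000 UMIs per cell, the shares with the Mg-TAGelMA nail were 5.13% against 2.30% in classical monocyte-like cells (2 of 39 cells) and 4.46% against 2.67% in mature neutrophil-like cells (5 of 112 cells). In thinned early granulocyte-like cells of that library 0 of 6 cells with Tlr4 had both.

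Genes whose levels ran most like each receptor across the cell types were ranked by the lower of the within-library Pearson correlations of log2(CPM + 10), over 14 types with the Mg-TAGelMA nail and 12 with the Mg nail, among 5331 genes. The types of a library share its free RNA and depth, so these values describe and do not test. For Tlr2 they were Klra2 (0.949), Rin2 (0.946) and Lrrc25 (0.944), and for Tlr13 Klra2 (0.962), Slc11a1 (0.961), a metal transporter of the phagosome, and Pla2g7 (0.939). Cd14 ran with Lyz2 (0.937), the lysozyme of myeloid cells, Ralb (0.932) and Cd300lb (0.923). Myd88 ran with Sirpa (0.907) and Cd300a (0.907). The likeness was looser for Tlr4 (Atp6v1b2 0.859, Atg7 0.829, Sat1 0.828), for Tlr7 (Pcnx 0.794, Ldlrad3 0.791, Slc15a4 0.759) and for Ly96 (Tpd52 0.747, Apobec1 0.714). Slc15a4 is the endosomal transporter listed above with the receptors' trafficking. Tlr9 did not exceed 4.26 CPM in any of these types, under the 10 CPM added, so its ranking holds no information.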

How the data were processed

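RNA of single cells was measured in 2 libraries, 1 per nail. The deposited files give UMI counts, not normalised, for each gene in each barcode, made with Cell Ranger 7.0.1 (Mg-TAGelMA) and 5.0.0 (Mg), per the file headers. Barcodes and gene names come from the other deposited files, which carry no measured unit. The submitters' processing notes name STAR and mm10. Annotation release, intron setting and pooling are not given in the sources used here.

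Cells with at least 200 genes and at most 15% mitochondrial UMIs were kept, and scrublet doublets removed (297, 3.95%, from Mg-TAGelMA mice and 197, 2.37%, from Mg mice). A cell took the type with the highest share of its marker list raised, with at least 3 raised markers and no tie. A marker was raised at 2 times its mean share of UMIs. This gate rule was set after seeing the data, with thresholds of 1, 2 and 3 compared on numbers of gated cells. The 8 genes, the lists and the named-gene rule were chosen with earlier results of these data known. The rule names the 3 pathway genes with the largest change past 2-fold per list; Ticam1 and Ticam2 in monocyte-like cells and Tirap were added after their values were seen. Some genes that ranked among the most alike to Myd88 and Ly96 are not reported here.

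UMIs were summed per library and type and scaled to the type's total (CPM), with exact Poisson, Clopper-Pearson and conditional binomial 95% intervals. Where a count was 0, 3 counts took its place, and no ratio was given where both counts were at or under 3. Types need 50 cells. Intron lengths come from the GENCODE annotation of GRCm38, promoter sequences from RefSeq. The ratio step was tested on simulated counts. Alternatives were other scalings (TMM of edgeR 4.0.16, size factors of DESeq2 1.42.0), totals, gates, filters and thinning to 1000 UMIs. Python 3.11.15, scanpy 1.11.5, numpy 2.4.6, scipy 1.17.1, pandas 2.3.3 and R 4.3.3 were used.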

Additional observations from a re-analysis of the deposited data

How the results depend on the processing

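Of the 34 ratios that reached 2-fold over all types, 33 kept their call under TMM scaling, 33 under median-ratio scaling, 33 with at least 500 detected genes, 34 with no mitochondrial filter, 33 with doublets kept, 32 with the total of genes of at most 8 kb of intron and 30 with the total without Gm42418 and AY036118. The gates kept 26 of 33 (1 more marker), 20 of 24 (cluster gate), 32 of 34 (markers at 1 times the mean share, chosen after seeing the data) and 30 of 34 (3 times, likewise). Thinning kept 10 of 25. In mature neutrophil-like cells the count of genes higher was 1 in place of 3 without Gm42418 and AY036118 and with 1 more marker, and the cluster gate gave no value there. In classical monocyte-like cells 1 gene was lower in place of 0 with no minimum on UMIs and with the cluster gate, and 2 were higher in place of 1 after thinning. Over all cells thinning left 0 lower in place of 1. Ly96 in B-like cells turned to 0.888-fold after thinning. The causes were not tested. TMM scaling moved all log2 ratios by -0.20 in early granulocyte-like, 0.13 in immature neutrophil-like, 0.20 in mature neutrophil-like and -0.38 in erythroid-like cells. No paired analysis was possible because each nail has 1 library. Tlr9 rests on 35 UMIs with the Mg-TAGelMA nail and 67 with the Mg nail, and Ly96 of mature neutrophil-like cells on 6 UMIs with the Mg nail, so their intervals are wide.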
